A study of Rattus norvegicus with 12 samples.

Results

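Integrins are receptors of an alpha and a beta subunit that hold cells to the matrix or to other cells, and laminins are trimers of an alpha, a beta and a gamma chain that build basement membranes. All genes of the deposited table whose symbols name an integrin alpha or beta subunit or a laminin chain were taken, which gave 37 of 33801 genes. They comprise 8 leukocyte integrins, 2 platelet integrins, 16 integrins of stromal and other tissue cells, and 11 laminin chains. The choice used symbols and no measured value, but was made with earlier results of these data known.

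The levels come from RNA sequencing of bone around mini-implants at the upper first molar site of wild-type rats. The implants were titanium, called cpTi in the labels, or the alloy Zr58Cu25Al14Nb3, called Nb3 alloy below. They were loaded cyclically for 2 weeks or stayed static for that time, and the sampled bone had a diameter of 4 mm, so every group carried an implant and none was bone without one. The 12 libraries form 4 groups of 3, with each material once under loading and once static, and all groups share the wild-type genotype. The sources used here do not give strain, sex or age. Nor do they say whether replicates came from different animals, so the p-values refer to the variation among the sequenced samples, which may be technical.

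In bone and its marrow, the integrins of different cells share beta subunits. Itgb2 pairs with the leukocyte subunits Itgal, Itgam, Itgax and Itgad. Itga4 pairs with Itgb1 or Itgb7 and holds blood progenitors and lymphocytes to Vcam1 on stroma and vessels. Itga2b pairs only with Itgb3 to form the fibrinogen receptor of megakaryocytes and platelets, whereas Itgav with Itgb3 is the receptor by which osteoclasts attach to bone. Itgb1 is the common partner of the collagen, fibronectin and laminin receptors. Laminin trimers with the Lama4 or Lama5 chain lie under endothelium and around smooth muscle and nerve, Lama2 marks muscle and nerve, and Lama3 and Lamb3 are chains of the laminin that anchors epithelium through Itga6 with Itgb4.

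Promoter sequence stands here for the 3 largest falls and the 2 largest rises under loading beside the Nb3 alloy among members with an entry. They were ranked by the log2 difference used below, and are shown because they moved in opposite directions. Each stretch of 300 bases runs from 250 bases before to 50 after the gene's start, in RefSeq's GRCr8 build, 5′ to 3′ on the gene's strand. Entries matched 28 of the 37 members. Itgad, Itgal, Itgb2, Itgb3, Itga6, Itga7, Itgb4 and Lamb2 are named only. Capitals mark 4 motifs searched on both strands, which do not overlap in these stretches: the letters GATAAG for factors of the GATA family, GGAAGT for the ETS family, TGTGGT for the RUNX family and GGGCGG for the GC box.
Itga2b: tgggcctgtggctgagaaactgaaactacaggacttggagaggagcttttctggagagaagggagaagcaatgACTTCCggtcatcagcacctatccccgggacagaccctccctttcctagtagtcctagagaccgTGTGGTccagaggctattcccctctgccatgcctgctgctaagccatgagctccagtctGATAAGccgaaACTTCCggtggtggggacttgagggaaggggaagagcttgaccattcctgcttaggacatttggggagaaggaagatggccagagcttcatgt
Itgb7: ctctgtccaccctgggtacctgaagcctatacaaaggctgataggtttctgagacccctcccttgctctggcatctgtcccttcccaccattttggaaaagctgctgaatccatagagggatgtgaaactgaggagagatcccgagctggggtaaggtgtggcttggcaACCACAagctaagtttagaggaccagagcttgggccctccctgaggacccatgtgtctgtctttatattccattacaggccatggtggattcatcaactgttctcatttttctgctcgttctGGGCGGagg
Itga4: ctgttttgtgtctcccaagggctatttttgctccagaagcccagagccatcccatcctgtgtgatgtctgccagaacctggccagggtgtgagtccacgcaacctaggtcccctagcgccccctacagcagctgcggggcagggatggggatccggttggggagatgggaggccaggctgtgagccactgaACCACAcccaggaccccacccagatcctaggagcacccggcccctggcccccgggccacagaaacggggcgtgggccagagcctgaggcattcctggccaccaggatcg
Lamb1: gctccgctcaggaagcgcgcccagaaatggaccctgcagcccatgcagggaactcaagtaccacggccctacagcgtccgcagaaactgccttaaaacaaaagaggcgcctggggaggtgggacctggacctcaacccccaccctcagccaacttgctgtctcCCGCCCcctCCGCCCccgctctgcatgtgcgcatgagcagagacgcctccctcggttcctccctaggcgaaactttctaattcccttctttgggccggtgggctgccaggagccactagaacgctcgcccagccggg
Lama5: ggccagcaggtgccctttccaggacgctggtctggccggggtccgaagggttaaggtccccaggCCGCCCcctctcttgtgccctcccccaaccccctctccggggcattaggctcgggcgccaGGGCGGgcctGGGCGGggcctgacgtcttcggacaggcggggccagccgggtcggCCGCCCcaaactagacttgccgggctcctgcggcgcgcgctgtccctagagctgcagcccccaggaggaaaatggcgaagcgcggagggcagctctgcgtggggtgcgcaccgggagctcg
The Itga2b stretch is chr10:87925784-87926083 on the minus strand, Itgb7 is chr7:135239022-135239321 on the minus strand, and Itga4 is chr3:84569765-84570064 on the plus strand. Lamb1 is chr6:53562846-53563145 on the plus strand and Lama5 is chr3:187695925-187696224 on the minus strand. The Itga2b stretch held 1 GATA match, 2 ETS matches and 1 RUNX match, and no GC box. Itgb7 held 1 RUNX match and 1 GC box, and Itga4 held 1 RUNX match. Lamb1 held 2 GC boxes and Lama5 held 4, and neither held a match to the other 3 motifs. Among the 28 members with an entry, 3 held GATAAG (Itga2b, Itgae and Lama1), 6 held GGAAGT, 6 held TGTGGT and 15 held GGGCGG. Over all 33469 promoters of that length the shares were 7.05%, 22.6%, 17.3% and 33.1%. A match is a description of letters, not a bound site.

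Reads on genes ranged from 12.9 to 22.3 M per library. The 3 libraries of loaded Nb3 alloy bone were unlike the other 9: across all tested genes they correlated with those at 0.731 to 0.866, while the 9 correlated with each other at 0.932 to 0.969. Mitochondrially encoded genes took 11.97%, 24.3% and 11.3% of their reads, against 4.31% to 6.86% in the other 9. Bone markers were present in all libraries, with a sum of osteoblast and osteocyte markers of 3555 to 18693 FPKM (fragments per kilobase of gene, scaled by depth). Markers of other cells moved with the group: the sum of 11 neutrophil markers was 64.5 to 433 FPKM in loaded Nb3 alloy and 6254 to 21134 in the other 9, and that of 9 erythroid markers was 32.4 to 58.2 against 1035 to 2389. The sum of 10 endothelium markers was 400 to 692 against 115 to 197 FPKM, and that of 10 smooth muscle and pericyte markers was 710 to 1051 against 130 to 388. In whole tissue, fewer cells of a type and less RNA per cell cannot be told apart.

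Across the 37 members, levels in non-loaded Nb3 alloy bone ran from hardly detected to near 90 FPKM. Values per length put 4 beta subunits on top, with Itgb3 at 88.3 ± 14.6 FPKM (SD, n = 3), Itgb1 at 86.2 ± 6.42, Itgb2 at 73.3 ± 26.9 and Itgb5 at 59.2 ± 3.41. The ranges of Itgb3, Itgb1 and Itgb2 overlapped, so their order is not set by these libraries. In loaded Nb3 alloy bone Itgb1 led at 164 ± 11.6 FPKM, ahead of Itgb5 at 102 ± 25.8 and the laminin chain Lamb2 at 63.3 ± 13.1, and the Itgb1 libraries lay above all Itgb5 libraries. At the low end, Itgb6 and Itgae did not reach 1 FPKM in 3 libraries and were tested only without that filter. Lama1, Lama3 and Lamb3 reached it in 3 libraries only through the loaded Nb3 alloy group, so each of them had to be higher there to be tested at all.

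**Figure D1:**
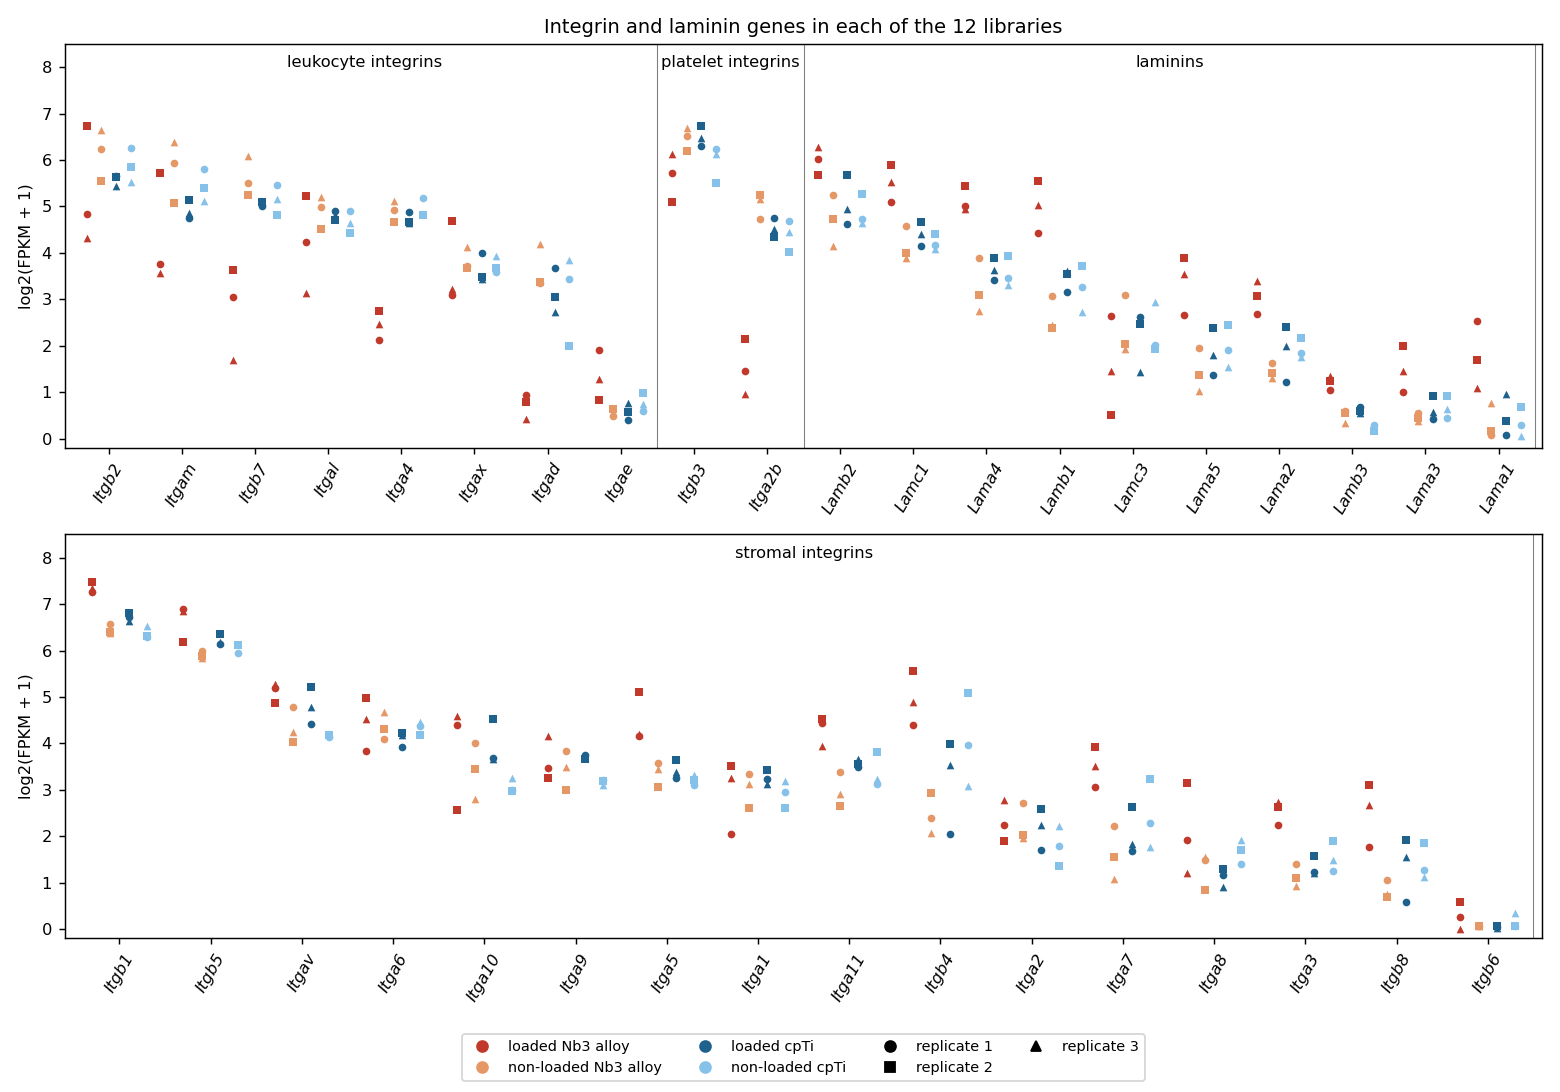
Level of the members described here as log2(FPKM + 1) in the 12 libraries, with 1 point per library, colour for the group and marker shape for the replicate number. Itga2b and Itga4 of the loaded Nb3 alloy group lie below all other libraries, and Lamb1 and Lama4 lie above them.

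The effect of cyclic loading beside the Nb3 alloy was asked by comparing its 3 loaded with its 3 non-loaded libraries. Among the called members, laminins and stromal integrins were higher and leukocyte and platelet integrins lower in the loaded bone. At an adjusted p under 0.05 (limma on log2(FPKM + 1), Benjamini-Hochberg over 15268 genes), 18 of 34 tested members rose and 6 fell. Of all tested genes, 20.7% rose and 25.2% fell, 45.8% in all. Without overlap between the libraries of the groups, 20 of 37 members were higher and 5 lower, beside 22.9% and 28% of all tested genes. Counts without overlap, here and below, cover all 37 members, also those left out by the filter. The shares beside them cover only tested genes. By class, 9 of 10 tested laminin chains and 9 of 15 tested stromal integrins rose and none fell, while 4 of 7 tested leukocyte and both platelet integrins fell and none rose. When the values were scaled by total reads, which moved the median of all tested genes to −0.17, 2265 genes rose and 4679 fell, in place of 3156 and 3840, and 15 members rose and 6 fell. The 9 laminin chains include the 3 that were tested only because of the loaded libraries. The median log2 difference was 1.39 for tested laminins, 0.80 for stromal, −1.45 for leukocyte and −2.17 for platelet integrins, beside −0.02 over all tested genes. The platelet value covers only 2 unlike genes, Itga2b at −3.52 and Itgb3 at −0.82.

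**Figure D2:**
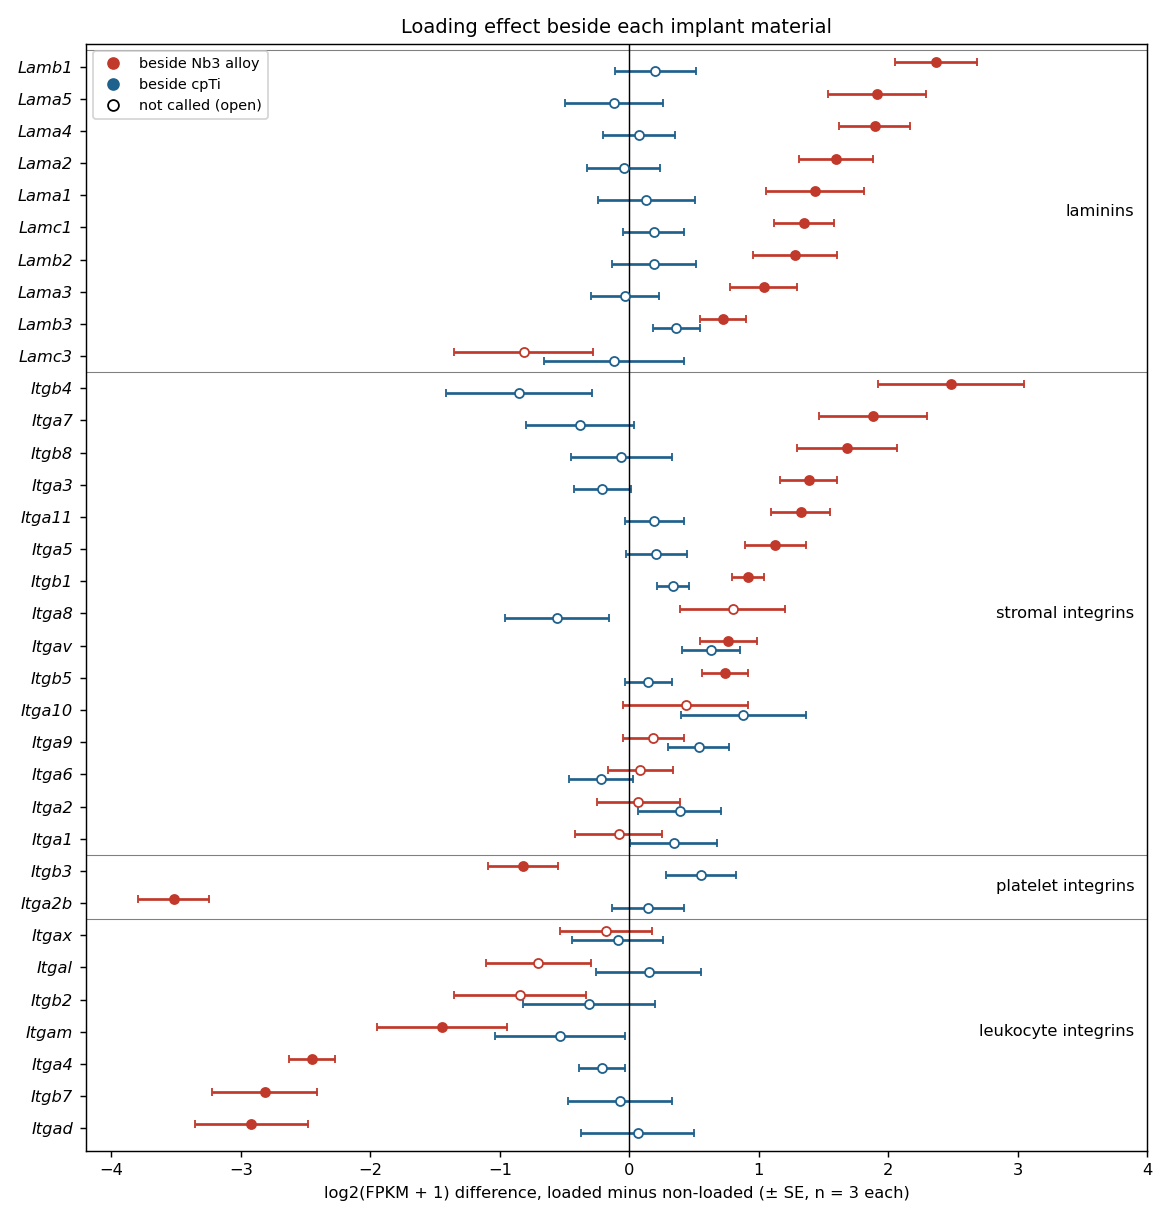
Difference of log2(FPKM + 1) between loaded and non-loaded bone for the 34 tested members beside each material, with its SE and 3 libraries a group. Filled points passed the adjusted p threshold, which 24 members did beside the Nb3 alloy and none did beside cpTi.

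On the log2(FPKM + 1) scale, the largest fall was that of the platelet integrin Itga2b (ENSRNOG00000022071, chromosome 10, 87408536 to 87426168 in the deposited table, whose genome build the sources used here do not name). Itga2b read 1.74, 3.40 and 0.946 FPKM in loaded and 25.4, 36.8 and 34.5 in non-loaded Nb3 alloy bone. The groups did not overlap, and the mean was 15.9 times lower under loading (2.03 ± 1.25 against 32.2 ± 6.02, SD, n = 3). The log2 difference was −3.52 (SE 0.28, limma adjusted p = 4.17e-06). Its partner Itgb3 (ENSRNOG00000048449, chromosome 10, 89509989 to 89564679) read 51.6, 33.1 and 69.0 FPKM in loaded and 90.5, 72.7 and 102 in non-loaded bone. All loaded libraries lay below all non-loaded ones, but by a smaller step, with a difference of −0.82 (SE 0.27, limma adjusted p = 0.0285). The Itgb3 call was lost in the fit of these 6 libraries alone (limma adjusted p = 0.0622), and without loaded Nb3 alloy replicate 2 (−0.54, limma adjusted p = 0.0976) or replicate 1 (0.0557). The same held without the first (0.0658) or the third (0.0973) non-loaded replicate.

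Both partners of Itgb3 can be set against it within a library. The Itga2b to Itgb3 ratio of FPKM was 0.0336, 0.103 and 0.0137 in the loaded Nb3 alloy libraries and 0.183 to 0.506 in the other 9. The Itgav to Itgb3 ratio went the other way, at 0.695, 0.847 and 0.550 against 0.176 to 0.388. In neither ratio did the 3 libraries overlap the 9. The 8 megakaryocyte and platelet markers summed to 72.1, 154 and 44.3 FPKM in loaded Nb3 alloy and 126 to 549 in the other 9. Beside 25.2% of all tested genes, 6 of 7 tested markers fell (Gp1bb was at 0 in all libraries). The sum of 8 osteoclast markers was 4893, 1060 and 3110 against 706 to 1898. The part of either in the ratios was not tested.

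**Figure D3:**
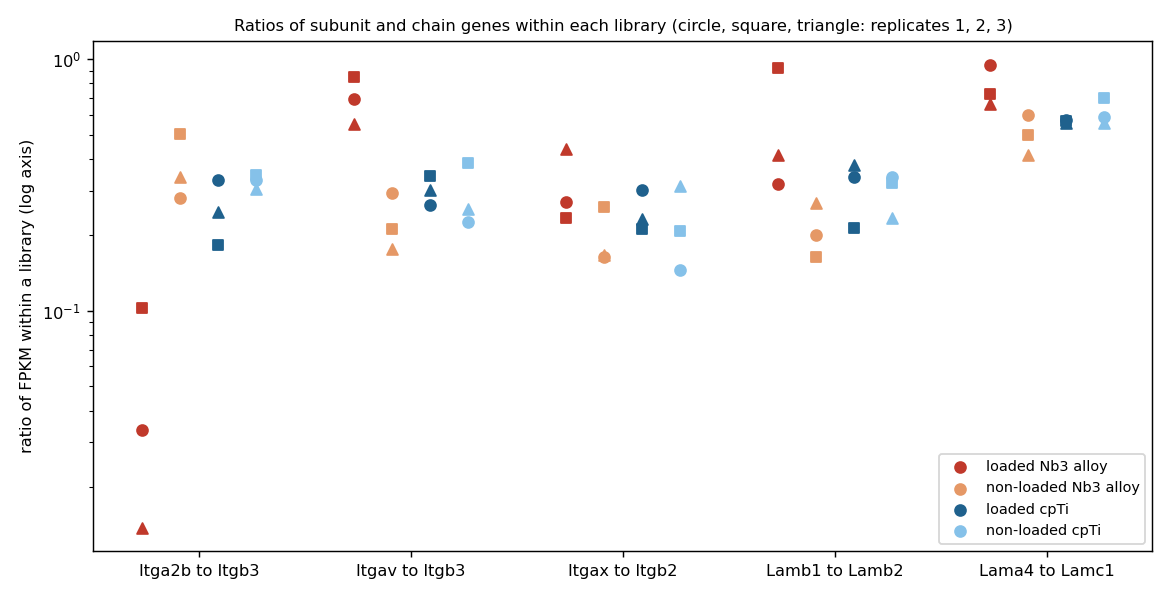
Ratio of FPKM between subunit or chain genes within each of the 12 libraries on a log axis, for 5 pairs shown out of 13 computed after the levels had been seen. The Itga2b to Itgb3 ratio is lowest and the Itgav to Itgb3 ratio highest in the 3 loaded Nb3 alloy libraries.

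Among the leukocyte integrins, Itga4, Itgb7 and Itgad fell without overlap. Itga4 (ENSRNOG00000004861), the alpha subunit that binds Vcam1, read 3.37, 5.74 and 4.53 FPKM in loaded and 29.5, 24.2 and 33.8 in non-loaded Nb3 alloy bone. Its difference was −2.45 (SE 0.18, limma adjusted p = 2.16e-06), with no overlap. Itgb7, which with Itga4 forms the receptor for gut homing, read 7.29, 11.4 and 2.25 FPKM against 44.3, 36.8 and 67.3. The log2 difference was −2.82 (SE 0.40, limma adjusted p = 0.000262), and all loaded libraries were again below all others of the alloy. Itgad, an alpha partner of Itgb2 found on tissue macrophages, read 0.916, 0.717 and 0.343 FPKM against 9.23, 9.31 and 17.1. Its mean was 18.1 times lower and its log2 difference −2.92 (SE 0.43, limma adjusted p = 0.000328), also with no overlap. All 10 tested neutrophil markers and all 9 erythroid markers fell in the same comparison, beside 25.2% of all tested genes. Other blood cell lists did not fall as a whole. Of 9 tested macrophage markers 2 rose and 1 fell, and of 7 T cell markers 4 rose and none fell, where 20.7% of all tested genes rose. The part of these cells in these values was not tested.

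The other Itgb2 receptors had no such separation, and the second loaded Nb3 alloy library was high in them. Itgam, the alpha subunit of the complement receptor of neutrophils and monocytes, read 12.5, 51.6 and 10.8 FPKM in loaded and 59.9, 32.6 and 82.3 in non-loaded bone. The loaded replicate 2 lay inside the non-loaded range and the other loaded replicates below it. Itgam passed the test at −1.45 (SE 0.50, limma adjusted p = 0.0359) but not in the fit of these 6 libraries alone (0.109). It did not pass without the first (0.0865) or the third (0.132) non-loaded replicate, nor without the first (0.125) or the third (0.132) loaded one.

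Itgb2, the shared beta subunit, read 27.7, 106 and 19.0 FPKM in loaded and 74.8, 45.6 and 99.4 in non-loaded bone. The highest and the 2 lowest of these 6 values were all loaded libraries, and the difference of −0.84 did not pass (limma adjusted p = 0.202). Itgal, the alpha subunit of the lymphocyte receptor for Icam1, read 17.8, 36.5 and 7.78 FPKM against 30.6, 21.9 and 36.03 (−0.70, limma adjusted p = 0.179). Itgax, the subunit used as a dendritic cell marker, read 7.48, 24.7 and 8.38 FPKM against 12.2, 11.8 and 16.6 (−0.18, limma adjusted p = 0.702). In each of these 3 genes, loaded replicate 2 was the highest of the 6 libraries.

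Without loaded Nb3 alloy replicate 2 the picture of the Itgb2 group differed. Itgb2 was then lower at −1.56 (limma adjusted p = 0.00261), Itgal at −1.22 (0.0075), Itgam at −2.13 (0.000633) and Itgax at −0.69 (0.0178), so 8 members fell and 16 rose. Lama1, Lama3 and Lamb3 no longer passed the filter without that library and were not tested, and Itga10 was called higher. Within its group, that library also held the highest share of mitochondrial reads. It had the highest value of Csf3r, a neutrophil receptor gene, at 40.3 FPKM against 9.26 and 7.12. The sum of all neutrophil markers differed less from replicate 1, at 276, 433 and 64.5 FPKM in replicates 1, 2 and 3. In the remaining 9 libraries that sum was 6254 to 21134. The macrophage marker sum of replicate 2 was 757 FPKM, beside 647 and 369 in the other loaded Nb3 alloy libraries and 219 to 609 in the remaining 9. Mpo, a granule enzyme gene of immature neutrophils, was at 0.249, 0.523 and 0.213 FPKM in the 3 loaded Nb3 alloy libraries. The part of these cells in the Itgb2 values was not tested. Itgae, the subunit of epithelial T cells, was listed at 2.75, 0.775 and 1.45 FPKM in loaded and 0.406, 0.550 and 0.491 in non-loaded bone, with no overlap. It was above 1 FPKM in only 2 libraries, both loaded, and without the filter on low values its difference was 0.77 (limma adjusted p = 0.0381), opposite in sign to the leukocyte integrins that fell. The sum of 7 T cell markers was 41.3, 55.7 and 13.9 FPKM against 13.3 to 32.7 in the 9 others.

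**Figure D4:**
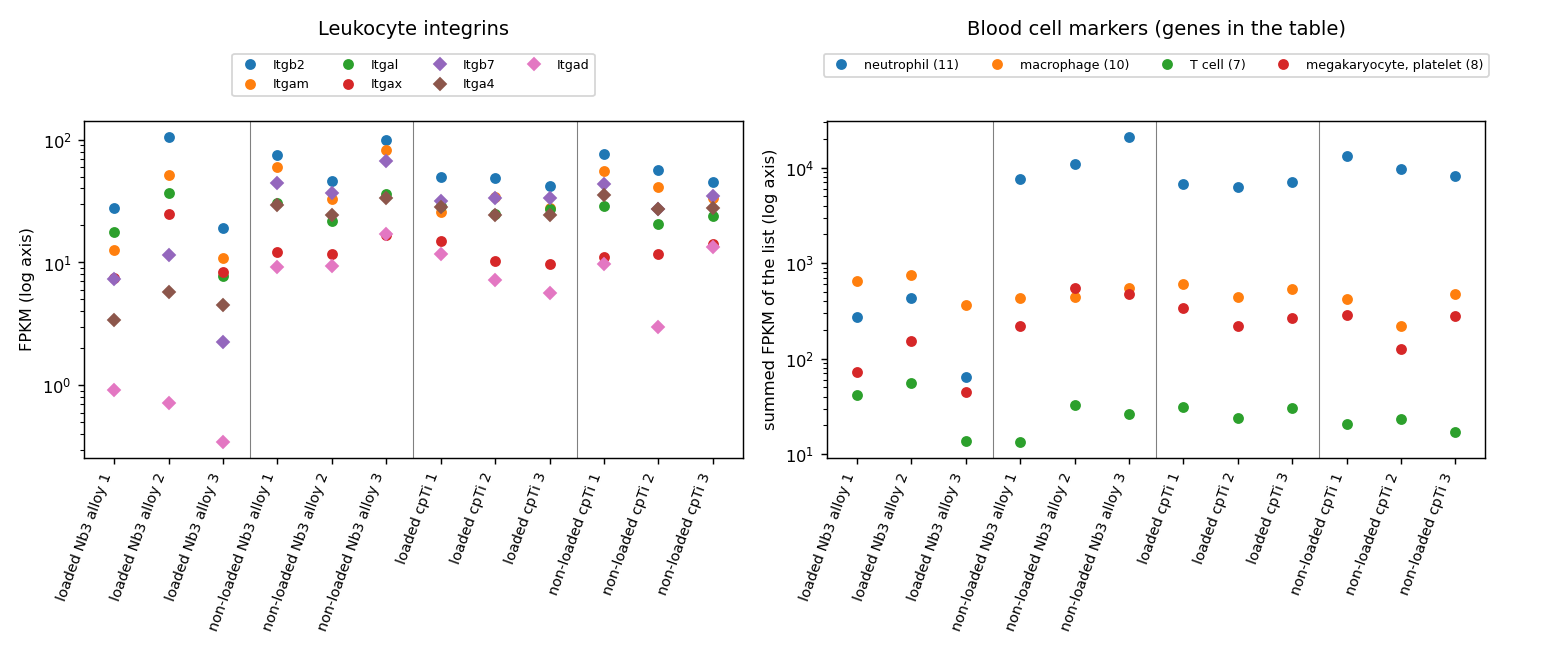
FPKM of 7 leukocyte integrins (left) and summed FPKM of 4 blood cell marker lists (right) in each library, on log axes. In the loaded Nb3 alloy group Itga4, Itgb7 and Itgad are low in all 3 libraries, whereas Itgb2, Itgam, Itgal and Itgax reach 106, 51.6, 36.5 and 24.7 in replicate 2.

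The Itgb2 partners Itgal, Itgam, Itgax and Itgad all lie on chromosome 1 in the deposited table. Itgal (181918183 to 181955732) stands apart, and Itgam (182659000 to 182709503), Itgax (182719609 to 182740698) and Itgad (182759740 to 182788161) follow one another on the plus strand. The difference of Itgal was −0.70. Among the other 3, the loaded to non-loaded differences of −1.45, −0.18 and −2.92 beside the Nb3 alloy did not follow the order on the chromosome. No test of a difference between neighbours was made. These genes are related in sequence, so reads that the counting could not tell apart may have been misassigned or left out.

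By chain class, 5 of 5 alpha, 3 of 3 beta and 1 of 2 tested gamma chains were called higher, of which Lama1, Lama3 and Lamb3 had to be high in the loaded group to be tested. Markers of endothelium (9 of 10), smooth muscle and pericytes (10 of 10) and fibroblasts (8 of 8) rose beside the laminin chains. The share of all tested genes that rose was 20.7%. Fibroblast markers summed to 2072, 3075 and 2061 FPKM in loaded Nb3 alloy against 238 to 975 in the other 9 libraries. The part of these cells in the laminin values was not tested. Lamb1 (ENSRNOG00000005678, chromosome 6, 47835525 to 47902585), a beta chain of most vascular and early basement membranes, read 20.4, 46.0 and 31.5 FPKM in loaded and 7.37, 4.19 and 4.47 in non-loaded Nb3 alloy bone. The lowest loaded library lay well above the highest non-loaded one, and the mean was 6.12 times higher (32.7 ± 12.8 against 5.34 ± 1.76, SD, n = 3). Its log2 difference was 2.37 (SE 0.32, limma adjusted p = 0.000162). Lama4, the alpha chain of endothelial basement membrane, read 31.5, 42.4 and 30.0 FPKM against 13.8, 7.49 and 5.74 (1.89, SE 0.28, limma adjusted p = 0.000281). Lama5, the other alpha chain of vessels and also of epithelium, read 5.30, 13.9 and 10.7 FPKM against 2.86, 1.60 and 1.05 (1.92, SE 0.38, limma adjusted p = 0.0019). In both alpha chains the groups did not overlap.

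Lama2, the alpha chain of muscle and peripheral nerve, read 5.40, 7.35 and 9.53 FPKM in loaded and 2.11, 1.67 and 1.46 in non-loaded bone (1.59, SE 0.28, limma adjusted p = 0.000983). Lama1, an embryonic and epithelial alpha chain, read 4.75, 2.25 and 1.13 FPKM against 0.0549, 0.121 and 0.710 (1.43, SE 0.38, limma adjusted p = 0.00917). Both were without overlap, but Lama1 is one of the chains that were tested only through their loaded values. The abundant chains Lamb2 and Lamc1 rose by 1.28 (63.3 ± 13.1 against 26.4 ± 10.2 FPKM, SD, n = 3) and 1.35 (45.5 ± 12.6 against 17.3 ± 4.99). Their limma adjusted p was 0.00761 and 0.000831.

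Of the chains of epithelial laminin, Lama3 was at 1.04 (limma adjusted p = 0.00759) and Lamb3 at 0.72 (0.00682) on the log2 scale, with no loaded library above 2.99 FPKM. Both were tested only through their loaded values. Lamc3 was the one tested laminin chain that did not rise. It read 5.19, 0.417 and 1.75 FPKM in loaded and 7.48, 3.10 and 2.80 in non-loaded bone, with overlapping groups (−0.82, limma adjusted p = 0.239).

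Ratios of laminin chains within a library overlapped between the 3 loaded Nb3 alloy libraries and the other 9. Lamb1 to Lamb2 was 0.320, 0.920 and 0.414 in loaded Nb3 alloy, against 0.163 to 0.378 in the other 9 libraries, so 1 loaded library lay inside that range. Lama4 to Lamc1 was 0.951, 0.728 and 0.663 against 0.418 to 0.700, again with 1 library inside the range. Lama4 to Lama5 was 5.93, 3.05 and 2.80 against 3.17 to 6.04.

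Of the 4 laminin receptor subunits, 3 rose beside the laminins, where 20.7% of all tested genes rose. By ratio of mean FPKM, Lama1 had a larger rise (9.17) than any of them. Itgb4 (ENSRNOG00000005580, chromosome 10, 101206665 to 101243012) is the beta subunit of hemidesmosomes and is also made by Schwann cells and some endothelium. On the log2(FPKM + 1) scale it had the largest rise of the tested members. It read 19.9, 46.2 and 28.7 FPKM in loaded and 4.27, 6.59 and 3.19 in non-loaded Nb3 alloy bone, without overlap, and its mean was 6.75 times higher (31.6 ± 13.3 against 4.68 ± 1.74, SD, n = 3). The difference was 2.48 (SE 0.56, limma adjusted p = 0.00432). Itga7, the laminin receptor of muscle, read 7.32, 14.1 and 10.4 FPKM against 3.64, 1.93 and 1.11 (1.88, SE 0.41, limma adjusted p = 0.00353). Itga3, a laminin receptor of epithelium and vessels, read 3.71, 5.196 and 5.67 FPKM against 1.65, 1.15 and 0.909 (1.39, SE 0.22, limma adjusted p = 0.000483). All 3 were higher in every loaded library than in every non-loaded one. The sum of 9 skeletal muscle markers was 143, 748 and 3.05 FPKM in loaded Nb3 alloy and 1.78 to 22.7 in the other 9 libraries. Of the muscle markers, 3 of 5 tested rose, beside 20.7% of all tested genes. The part of muscle in the Itga7 and Lama2 values was not tested.

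Itga6, the alpha partner of Itgb4, did not follow it. Itga6 read 13.3, 30.3 and 22.2 FPKM in loaded and 16.2, 18.8 and 24.5 in non-loaded bone (0.08, limma adjusted p = 0.806). The Itga6 to Itgb4 ratio was 0.665, 0.658 and 0.773 in loaded and 3.80, 2.86 and 7.68 in non-loaded Nb3 alloy bone, and 0.516 to 4.50 beside cpTi. Itgb4 also varied widely where no loading was applied: beside cpTi it read 14.6, 33.1 and 7.50 FPKM in non-loaded and 3.16, 14.9 and 10.54 in loaded bone. The non-loaded cpTi replicate 2 therefore reached the level of the loaded Nb3 alloy libraries.

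Markers of other cells that can make Itgb4 were measured beside it. The sum of 10 Schwann cell markers was 318, 730 and 1030 FPKM in loaded Nb3 alloy, 94.2, 116 and 101 in non-loaded Nb3 alloy, 114, 283 and 287 in loaded cpTi and 466, 375 and 122 in non-loaded cpTi, and all 10 rose under loading beside the alloy. The sum of epithelium markers was 10.3, 123 and 17.1 FPKM in loaded Nb3 alloy and 19.4 to 38.1 in the other 9, so 1 loaded library lay above and 2 below that range. Of 6 tested epithelium markers 1 rose and 2 fell, while of all tested genes 20.7% rose and 25.2% fell. The basal keratin Krt5 was at 51.1 FPKM in loaded Nb3 alloy replicate 2, at 0.168 and 0.931 in replicates 1 and 3 and at most 0.492 elsewhere. The part of nerve, vessel and epithelium in the Itgb4 values was not tested.

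**Figure D5:**
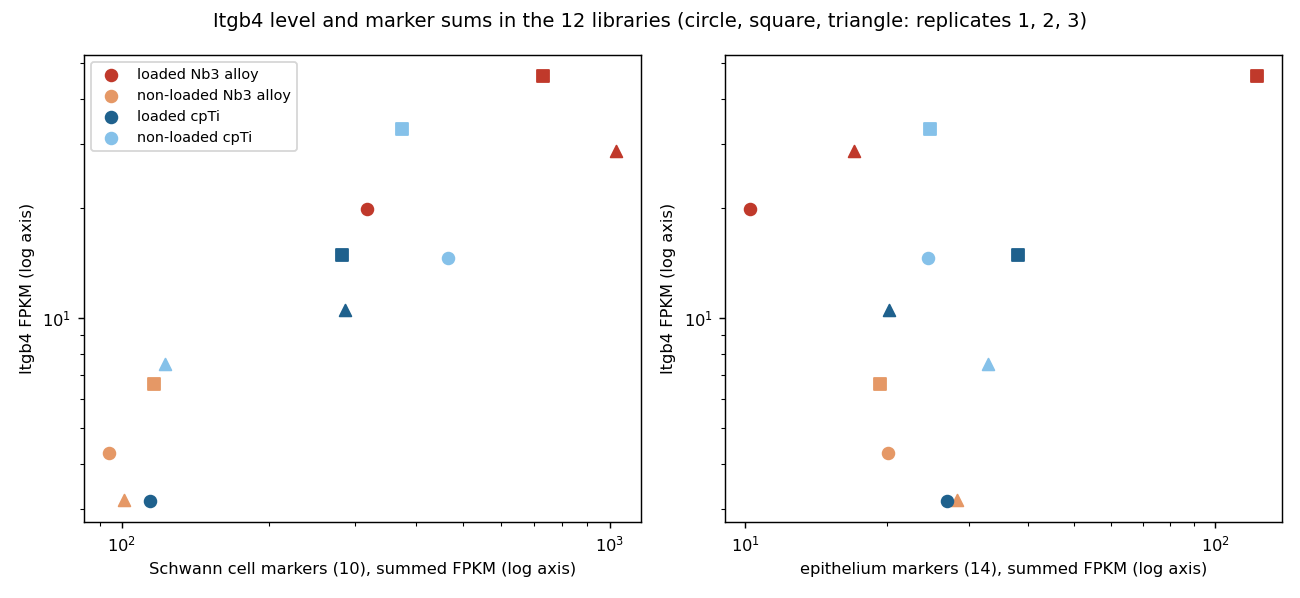
Itgb4 FPKM against the summed FPKM of Schwann cell markers (left) and of epithelium markers (right) in the 12 libraries, on log axes. The 3 loaded Nb3 alloy libraries span 318 to 1030 for Schwann cell markers and 10.3 to 123 for epithelium markers.

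Of 4 collagen receptor subunits 1 rose, and of 7 tested RGD and other receptor subunits 5 rose, beside 20.7% of all tested genes. Itga11, the fibroblast and osteoblast receptor for fibrillar collagen, was at 19.0 ± 3.98 FPKM in loaded and 7.06 ± 2.13 in non-loaded Nb3 alloy bone (SD, n = 3), a difference of 1.32 (SE 0.23, limma adjusted p = 0.000847). Itga1, Itga2 and the cartilage receptor Itga10 had differences of −0.08, 0.07 and 0.43, with limma adjusted p of 0.859, 0.881 and 0.492. Itga10 read 20.0, 4.94 and 23.2 FPKM in loaded bone, so that replicate 2 was low there, and without that replicate the difference was 1.08 (limma adjusted p = 0.024).

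Itgb1 (ENSRNOG00000010966, chromosome 19, 56705171 to 56753195) was the most abundant member of the loaded group. It read 153, 176 and 162 FPKM in loaded and 93.6, 83.3 and 81.8 in non-loaded bone, a narrow spread in both with no overlap (0.92, SE 0.13, limma adjusted p = 0.000192). Itgb8, a beta subunit that with Itgav activates latent TGF-beta, read 2.41, 7.64 and 5.36 FPKM against 1.08, 0.609 and 0.695 (1.68, SE 0.39, limma adjusted p = 0.00474). The fibronectin receptor subunit Itga5 rose by 1.13 (22.6 ± 9.37 against 9.42 ± 1.88 FPKM, SD, n = 3; limma adjusted p = 0.00273).

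Itgav, the common alpha subunit of the vitronectin receptors, rose by 0.76 (34.0 ± 5.21 against 19.9 ± 5.81 FPKM, SD, n = 3; limma adjusted p = 0.0154), and Itgb5, one of its partners, by 0.74 (102 ± 25.8 against 59.2 ± 3.41; limma adjusted p = 0.00591). Both calls were lost when the values were scaled by total reads, to 0.59 (limma adjusted p = 0.0829) and 0.56 (0.0704). The Itgav call was also lost without the second (0.61, limma adjusted p = 0.0622) or the third (0.71, 0.0538) non-loaded replicate, and narrowly without the third loaded one (0.68). Itga9, a tenascin and osteopontin receptor, was at 0.18 (limma adjusted p = 0.553) and the mesenchymal Itga8 at 0.80 (0.128). Itgb6, an epithelial partner of Itgav, stayed at or below 0.496 FPKM in all 12 libraries, and without the filter its difference was 0.21 (limma adjusted p = 0.26).

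Other genes of the pathway were taken as 3 lists. Of 9 tested basement membrane partners of laminin, 8 rose and none fell, with a median of 1.91, beside 20.7% of all tested genes that rose. They included the type IV collagen chains Col4a1 (187 ± 131 against 17.8 ± 10.01 FPKM, SD, n = 3; 3.23, limma adjusted p = 0.000198) and Col4a2 (2.93, 0.000265), Col18a1 (3.58, 0.000397) and the laminin receptor Bcam (2.06, 0.000555). Col17a1, a collagen of hemidesmosomes, was the member that did not pass, at −0.03. Of 16 tested other integrin ligands, 7 rose and 3 fell, with a median of 0.63, beside the same 20.7% and 25.2% of all tested genes. Adam15 (1.59, limma adjusted p = 0.000162), the matrix ligand Vtn (1.70, 0.000717), the Itgal and Itgam ligand Icam1 (1.81, 0.00115) and Edil3 (1.32, 0.0051) rose. Cdh1, the Itgae ligand (−1.90, 6.42e-05), the Itga4 ligand Vcam1 (−1.01, 0.0259) and Icam2 (−0.66, 0.0262) fell.

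Of 28 tested genes of integrin activation and the adhesion complex, 7 rose and 10 fell, with a median of −0.13, beside 20.7% and 25.2% of all tested genes. Within the kindlin, parvin and Lims families, members moved in opposite directions. Rasgrp2, the activator of Rap1 in platelets, fell by 3.03 on the log2 scale (limma adjusted p = 7.82e-07), and the actin linker Tln1 fell by 1.18 (0.000508), Apbb1ip by 1.31 (0.00066) and Parvb by 0.91 (0.000776). The adaptor Lims2 rose by 2.24 (limma adjusted p = 0.000103), Bcar1 by 1.31 (0.000443), Parva by 1.68 (0.000478) and Fermt2 by 0.95 (0.000553). Named after their values were seen, Fermt3, the kindlin of blood cells, fell by 1.91 (limma adjusted p = 0.000819), Parvg fell by 1.49 (0.0101) and Lims1 fell by 0.49 (0.0396). Mean FPKM was 20.2 ± 11.1 in loaded and 72.4 ± 14.7 in non-loaded bone for Fermt3, and 51.4 ± 8.10 against 26.1 ± 4.55 for Fermt2 (SD, n = 3).

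The effect of loading beside titanium was asked in the same way, and no member passed the test. Of 34 tested members, 0 were called by limma against 0% of all tested genes called higher and 0.00655% called lower. An unadjusted limma p under 0.05 was found for 3 members. The share of all tested genes at that threshold was not counted, so this number cannot be judged. Those 3 were Itgav (0.63, unadjusted p = 0.0157, limma adjusted p = 0.666), Itgb1 (0.34, 0.0216 and 0.666) and Itga9 (0.54, 0.0446 and 0.706). Itgav read 20.5, 35.9 and 26.7 FPKM in loaded and 16.7, 17.1 and 17.4 in non-loaded cpTi bone. Itgb1 read 105, 110 and 98.9 FPKM against 77.8, 79.1 and 91.7. Both were higher in every loaded library.

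Of the 37 members, 6 were higher in all 3 loaded cpTi libraries than in all 3 non-loaded ones and 2 were lower, beside 7% and 9.4% of all tested genes. The 6 were Itgav, Itgb1, Itga9, Itgb3, Itga10 and Lamb3, and the 2 were Itga8 and Itgb6. Lamb3 stayed at or below 0.596 FPKM in all cpTi libraries. Itgb6 lay at the floor, with 1, 2 and 1 reads in loaded and 2, 2 and 11 in non-loaded cpTi bone. Of the blood cell integrins, Itga2b read 25.9, 19.2 and 21.7 FPKM in loaded and 24.6, 15.3 and 21.0 in non-loaded cpTi bone (0.14, limma adjusted p = 0.942). Itga4 read 28.2, 24.5 and 24.2 FPKM against 35.3, 27.2 and 27.5 (−0.21, limma adjusted p = 0.84). Itgb3 was at 78.0, 105 and 88.4 FPKM against 74.2, 44.1 and 68.7 (0.55, limma adjusted p = 0.742), a direction opposite to that beside the alloy.

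The material was compared under loading by setting the 3 loaded Nb3 alloy libraries against the 3 loaded cpTi libraries. The first group is the same as in the loading comparison beside the alloy, so the values of both comparisons are not independent. Here 16 of 34 tested members were higher and 5 lower beside the Nb3 alloy, and of all tested genes 14.7% were higher and 18.9% lower, 33.6% in all. Without overlap, 17 of 37 members were higher and 5 lower, beside 21% and 25.5% of all tested genes. Against all 9 other libraries, 14 members were higher in the 3 loaded Nb3 alloy libraries and 4 lower, beside 15.2% and 21.2%. The 16 were 9 of 10 tested laminins and 7 of 15 tested stromal integrins, and the 9 again include Lama1, Lama3 and Lamb3, which were tested only through the loaded Nb3 alloy libraries. The 5 were Itga4, Itgad, Itgb7, Itga2b and Itgb3. Scaled by total reads, 10 members were higher and 5 lower, and of all genes 1354 were higher and 3679 lower, in place of 2239 and 2884. With single libraries left out, the count of higher members fell to 8 without loaded cpTi replicate 1, to 9 without its replicate 3 and to 10 without loaded Nb3 alloy replicate 2. Lama1, Lama3 and Lamb3 were not tested in the last of these fits.

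In loaded cpTi bone Itgad read 11.8, 7.24 and 5.63 FPKM and Itgb7 read 31.4, 33.2 and 33.8, with Itga2b, Itga4 and Itgb3 as given above. All loaded Nb3 alloy libraries lay below these. The differences were −3.01 for Itga2b (limma adjusted p = 2.01e-05), −2.44 for Itgad (0.00182), −2.28 for Itgb7 (0.00173), −2.28 for Itga4 (5.46e-06) and −0.86 for Itgb3 (0.0315). Itgb3 lost its call in the fit of these groups alone (limma adjusted p = 0.0637) and when any of the 6 libraries but loaded Nb3 alloy replicate 3 was left out (0.0503 to 0.0975). Itgb2 was at −0.27 (limma adjusted p = 0.723) and Itgam at −0.57 (0.418), and without loaded Nb3 alloy replicate 2 they were lower at −0.99 (0.035) and −1.25 (0.0171).

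Among the laminins, loaded cpTi bone held 7.97, 10.7 and 11.2 FPKM of Lamb1, 9.62, 13.8 and 11.3 of Lama4 and 1.59, 4.18 and 2.49 of Lama5. It held 1.34, 4.30 and 3.001 FPKM of Lama2 and 0.0471, 0.309 and 0.945 of Lama1. In all 5 chains every loaded Nb3 alloy library was higher. The differences were 1.56 for Lamb1 (limma adjusted p = 0.00356), 1.5 for Lama4 (0.00214), 1.52 for Lama5 (0.0107), 1.17 for Lama2 (0.00929) and 1.30 for Lama1 (0.0212). Lama1 was tested only through the loaded Nb3 alloy libraries. Its call was lost in the fit of these groups alone (limma adjusted p = 0.0627) and without loaded cpTi replicate 1 (0.0823) or 2 (0.0527).

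For the laminin receptors, Itga7 was at 2.23, 5.18 and 2.54 FPKM and Itga3 at 1.33, 1.99 and 1.31 in loaded cpTi bone, below all loaded Nb3 alloy libraries. Itga3 differed by 1.2 (limma adjusted p = 0.00209), Itga7 by 1.45 (0.0205) and Itgb4 by 1.75 (0.034). The Itgb4 call did not hold without loaded Nb3 alloy replicate 2 (1.45, limma adjusted p = 0.11) or replicate 3 (1.78, 0.0691), nor without loaded cpTi replicate 1 (1.19, 0.131) or replicate 3 (1.92, 0.0569). The Itga7 call did not hold without loaded Nb3 alloy replicate 2 (limma adjusted p = 0.0622) or loaded cpTi replicate 1 (0.0771) or 3 (0.0693). Itgb1 was higher by 0.64 (limma adjusted p = 0.003). Lama3 (0.85), Lamb2 (0.91), Lamb3 (0.60), Itgb8 (1.16) and Itga11 (0.73) passed as well, each with a limma adjusted p of 0.0238 to 0.0494. Of these 5, Lama3 and Lamb3 were tested only through the loaded Nb3 alloy libraries. All 5 lost the call without loaded cpTi replicate 1 (limma adjusted p = 0.0517 to 0.179), and at least 1 of them did without each of the other loaded libraries. Of the 11 fits with other settings and all libraries in question, Lamb2 lost the call in 9, Itgb8 in 4, Lamb3 in 3 and Itga11 in 2. Lama3 lost it in 1 of 9 such fits, and Itgb4 in 3 of 11. Of the 21 called members, 12 kept the call in all fits run.

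Without loading, the material comparison gave no call. Of 34 tested members, 0 were called by limma, as were 0% of all tested genes in either direction. An unadjusted limma p under 0.05 was found for 2 members, again without a count of all tested genes at that threshold. Itgb4 was at 4.68 ± 1.74 FPKM in non-loaded Nb3 alloy and 18.4 ± 13.2 in non-loaded cpTi bone (SD, n = 3; −1.58, unadjusted p = 0.0172, limma adjusted p = 1), without overlap. Itga2b was at 32.2 ± 6.02 against 20.3 ± 4.67 FPKM (0.65, unadjusted p = 0.0389, limma adjusted p = 1), also without overlap. In all, 2 members were higher and 3 lower beside the alloy without overlap, next to 2.88% and 4.41% of all tested genes.

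Whether the loading difference depended on the material was tested as an interaction of both, in which 11 of 34 tested members were higher and 5 lower (8.42% and 11.8% of all tested genes, 20.2% in all). Scaled by total reads, 845 genes were higher and 2380 lower, in place of 1285 and 1804, and 9 and 5 members. Leaving out loaded cpTi replicate 1 or the third non-loaded Nb3 alloy replicate left 5 members higher, and 1997 and 2031 of 3089 genes called. A positive value means that the loaded to non-loaded difference was larger beside the Nb3 alloy. The 11 were Lama2, Lama4, Lama5, Lamb1, Lamc1, Itga3, Itga7, Itgb4, Itga11, Itgb1 and Itgb8. The 5 were Itga2b, Itga4, Itgad, Itgb7 and Itgb3.

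Non-loaded cpTi bone, which enters here, held 8.66, 12.1 and 5.66 FPKM of Lamb1, 10.1, 14.2 and 8.91 of Lama4 and 2.74, 4.48 and 1.91 of Lama5. It held 2.57, 3.51 and 2.39 FPKM of Lama2, 3.85, 8.46 and 2.40 of Itga7, 1.37, 2.73 and 1.82 of Itga3 and 1.41, 2.61 and 1.18 of Itgb8, for which loaded cpTi bone held 0.507, 2.78 and 1.93. These overlapped the loaded cpTi values in all 7 genes. Of the blood cell integrins it held 9.77, 2.97 and 13.3 FPKM of Itgad and 43.3, 27.3 and 34.8 of Itgb7, which also overlapped the loaded cpTi values. Itgb2 was at 76.0, 56.6 and 45.2 FPKM in non-loaded and 49.3, 48.4 and 42.3 in loaded cpTi bone.

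The interaction was −3.66 for Itga2b (limma adjusted p = 0.000151) and −2.24 for Itga4 (0.000199), and both calls held in each alternative run. It was 3.34 for Itgb4 (limma adjusted p = 0.0149), made up of a difference of 2.48 beside the alloy and one of −0.86 beside cpTi that did not pass on its own (0.803). For Lamb1 it was 2.17 (limma adjusted p = 0.00717) and for Itga3 1.60 (0.00565), and these calls held in each alternative too. Itgb1 (0.58, limma adjusted p = 0.0406) and Itgb8 (1.74, 0.0461) each lost the call in 10 of the 12 fits that left out 1 library. Of the 16 called members, 9 kept the call in all fits run and 7 lost it in at least 1.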

How the data were processed

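RNA of 12 samples was isolated with TRIzol and sequenced as polyadenylated RNA from NEBNext Ultra libraries, per the labels' protocols. The authors deposited FPKM, a value per gene scaled by length and depth. HISAT2 2.0.5, fastp and CASAVA 1.8 are listed by the submitters' processing notes, as are DESeq2 1.20.0 and featureCounts 1.5.0-p3, with no step tied to any of them. For the genome build, annotation and strand setting, nothing is stated there (not given in the sources used here). Multiplying FPKM by gene length gave whole reads for 100% of values within 0.01 read, and the depth used followed median-of-ratios size factors (ratio 0.992 to 1.02).

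From these values, log2(FPKM + 1) was fitted with limma 3.58.1 in R 4.3.3, using 1 mean per group, 12 libraries, 8 residual degrees of freedom and trended, robust moderation. A fold change on that scale understates the change of low genes. A gene was tested at 1 FPKM or more in 3 or more libraries (15268 of 33801) and counted as called where the Benjamini-Hochberg adjusted p over those genes was below 0.05. A count model was planned only for a table of counts, so recovered reads served alternatives only. The fit was tested on simulated data.

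Of the 37 members, 1 is not reported here. Members and lists were chosen with earlier results of these data known. Values in every library are given for up to 8 called members per direction and comparison and for Itgb1, Itgb2 and Itgb3, and up to 4 called genes per direction from each pathway list. Alternatives were other scalings, filters, pseudocount, limma-voom, a replicate block, fits of only the groups compared, a log2 threshold and leaving out each library. Scaling by nuclear reads was added after the data were seen. No reference genome was used.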

Additional observations from a re-analysis of the deposited data

Results flagged for a closer look

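The loading difference beside the Nb3 alloy minus that beside cpTi passed limma's interaction test (adjusted p under 0.05) for 16 members. The 5 negative ones were −3.66 for Itga2b, −2.98 for Itgad, −2.74 for Itgb7, −2.24 for Itga4 and −1.38 for Itgb3. The 11 positive ones were 3.34 for Itgb4, 2.26 for Itga7, 2.17 for Lamb1, 2.03 for Lama5, 1.82 for Lama4, 1.74 for Itgb8, 1.64 for Lama2, 1.60 for Itga3, 1.16 for Lamc1, 1.13 for Itga11 and 0.58 for Itgb1, on the log2 scale. Lama5 lost the call without loaded cpTi replicate 1 (1.79, adjusted p = 0.0579), the third non-loaded Nb3 alloy replicate (1.82, 0.0588) or the second non-loaded cpTi one (1.79, 0.057). Itga7 lost it without loaded cpTi replicate 1 (0.0548) or 3 (0.0515) or the third non-loaded Nb3 alloy replicate (0.0543). Itgb3 lost it in 5, Lamc1 in 7 and Itga11 in 8 of the 12 fits without 1 library. All of these values rest on the 3 loaded Nb3 alloy libraries, and whether their different cell marker and mitochondrial levels bear on them was not tested.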

How the results depend on the processing

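Of the 24 members called under loading beside the Nb3 alloy, 20 kept a limma adjusted p under 0.05 in every refit that tested them. Itgam, Itgb3, Itgav and Itgb5 lost it in at least 1, and the causes were not tested. The 20 include Lama1, Lama3 and Lamb3, which no fit without a loaded Nb3 alloy library tested. Whether their calls depend on 1 of those libraries therefore cannot be told. Asking also for a log2 difference of at least 1 left 14 members higher and 5 lower, and 3475 of 6996 genes there and 2275 of 5123 for the material under loading, by its construction. Beside cpTi, where 1 gene was called, quantile normalization called 3, no filter 2, and a pseudocount of 0.1, a CPM filter, limma-voom, the replicate block and the groups alone 0. Without loading, no filter gave 1 gene for the material. Under loading, scaling by total reads and fitting the groups alone each left 10 members higher beside the alloy. Uncalled values changed sign for Itga1 with quantile normalization (0.0019) and, with total reads, for Itga2 (−0.069) and Itga6 (−0.091). With each library left out in turn, loading beside the alloy gave −0.69 to 0.11 for Itgax, −0.080 to 0.38 for Itga9, −0.37 to 0.36 for Itga1, −0.17 to 0.31 for Itga2 and −0.18 to 0.39 for Itga6, and the material under loading gave −0.99 to 0.22 for Itgb2. The same fits called 0 to 4 genes beside cpTi, 0 to 4 for the material without loading, 8 to 16 members higher for the material under loading, and 1997 to 3095 genes and 5 to 11 members higher in the interaction, with 5 members without loaded cpTi replicate 1 or the third non-loaded Nb3 alloy replicate, 6 without loaded cpTi replicate 3 or the second non-loaded cpTi replicate and 7 without the second non-loaded Nb3 alloy one. Of 18 same-number pairs of samples, 1 correlated above 0.1 (range −0.252 to 0.115). Different-number pairs were not set beside them, so this cannot tell whether replicate numbers pair the samples. With a replicate block, loading beside the alloy called 6568 genes and 18 members higher and 5 lower, Itgam at an adjusted p of 0.0554. Itgb6 and Itgae, below 1 FPKM in most libraries, were tested only without the filter on low values, where Itgae reached an adjusted p of 0.0381 and Itgb6 0.26.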
